A study of Mus musculus with 10 samples.

Results

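Mitochondrial ribosomal protein genes were followed in the livers of 10 mice, each hybridised to its own 1-colour oligonucleotide array. The 5 treated mice were male C57Bl/6 animals given an oligonucleotide antisense to the microRNA miR-122 (ASO, with 2′-O-methoxyethyl sugars and a phosphorothioate backbone) at 50 mg/kg by intraperitoneal injection, 2 times a week over 4 weeks, and killed 2 days after the final injection. The 5 control mice received saline on that schedule. The labels give neither strain nor sex for the controls and no age for either group, and no oligonucleotide of another sequence was among the samples, so blocking miR-122 and the effect of the chemistry cannot be told apart. Members were all genes whose annotated symbol begins with Mrpl or Mrps followed by a number and which had a probe assigned to that gene alone. There were 72 of them among 18012 genes measured, and the probe with the highest mean over the 10 arrays stood for each gene. The rule used no difference between the groups.

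The mitochondrial ribosome makes the few respiratory chain proteins that are encoded by mitochondrial DNA. Its RNAs are transcribed inside the organelle, whereas all of its proteins are encoded in the nucleus, made in the cytosol and imported. Its small subunit reads the messenger RNA and its large subunit joins the amino acids and anchors the ribosome to the inner membrane. Some of the proteins have counterparts in bacterial ribosomes and others are found in mitochondria alone. Liver cells are rich in mitochondria, so these genes are active there throughout life.

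The list held 46 proteins of the large subunit and 25 of the small subunit. By textbook assignment 42 have a bacterial counterpart and 29 do not. Mrps30 and Mrps18a carry a small subunit name but sit in the large subunit, and were counted there. Mrps36 matches the symbol rule, but its protein is an adaptor of the 2-oxoglutarate dehydrogenase complex and not a ribosomal protein, so it was kept as a member and placed in neither subunit.

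All 72 had a mean above the median of the tested probes (0.03 on the log2 intensity scale), with levels from 0.14 for Mrps5 to 6.88 for Mrps12 and a median of 4.54. Mrpl36, at 0.21, was close to that median, and its ASO mean of -0.20 lay below it. The low end was held by Mrps5, Mrpl36, Mrps34, Mrpl35 and Mrps14, and the high end by Mrps12, Mrpl17, Mrps18b, Mrps15 and Mrpl14. Probe brightness depends on the probe as well as on the transcript, so this order does not rank the transcripts. Only 1 of the members' values lay at the floor that was set for dim signals (-2.38 on the log2 scale), for Mrps34 in saline replicate 4. Saline replicate 1 stood apart from the other arrays in its top end, where its brightest value was 542. The highest value of any member was 194 on the linear scale, below that ceiling. That does not show that the array's scale matched the others in the members' range, and its median deviation is given below. Mrpl10, Mrpl21 and Mrps28 each lacked 1 saline value and were fitted with 4 saline mice.

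Hepatocyte markers were bright on all arrays, as the liver label requires (11 of 14 listed genes measured, none with a level below the median probe). Their summed linear intensity was 4070 to 8490 in saline and 8010 to 9930 in ASO mice, and their median log2 difference was 0.41 (0.14 after quantile and 0.42 after cyclic loess normalization). These values include saline replicate 1, whose brightest value was 542, against 1198 or more on each other array. The part of that ceiling in the marker values was not tested. The Kupffer cell and macrophage list (10 of 12 measured) summed to 152 to 358 in saline and 61.0 to 348 in ASO mice. The lymphocyte list summed to 11.2 to 16.2 and 8.44 to 12, the endothelial list to 66.3 to 125 and 49.7 to 163, the stellate cell list to 88.8 to 111 and 70.6 to 99.9, and the bile duct list to 6.67 to 8.55 and 6.21 to 8.58. Below the median probe level were 2 of 10 Kupffer cell, 5 of 9 lymphocyte, 2 of 8 endothelial, 2 of 8 stellate cell and 2 of 5 bile duct genes. These sums therefore rest mostly on the brighter genes of each list. The part of cell composition in the values below was not tested. In whole liver, fewer cells of a type and less RNA per cell cannot be told apart.

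None of the 72 genes passed the limma test of ASO against saline adjusted over all tested probes (threshold 0.05), a call that 0.0637% of all probes and 0.112% of the genes of like brightness (2690 other genes whose probe level lay between the members' quartiles, 3.50 to 5.75) received. At an unadjusted p under 0.05, 10 members passed, beside 11.2% of all probes and 16.2% of those genes. The smallest adjusted p was 0.237, and over the 18 alternative analyses the smallest that any member reached lay between 0.112 and 0.414. At an unadjusted p under 0.05, 9 members were lower in the ASO group (12.5%), beside 6.66% of all probes and 12.3% of the genes of like brightness. Mrpl3 was the 1 member on the higher side (1.39%), beside 4.58% of all probes and 3.90% of those genes. The share on the lower side was therefore close to that of other genes of like brightness. Single arrays moved the count of 9, which was 4 without saline replicate 1, 4 without ASO replicate 3 and 15 without ASO replicate 5. The share of all probes that were lower at that limit moved too, to 4.61%, 5.26% and 8.41% in the same order.

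As deposited, the median log2 difference (ASO minus saline) over the members was -0.13 and 56 of 72 were below 0, but with quantile normalization the median was 0.0024 with 35 of 72 below 0, and with cyclic loess it was -0.017 with 38 of 72 below 0. The other genes of like brightness had a median of -0.12 with 64.6% below 0 as deposited, and 0.024 with 47.3% below 0 after quantile normalization. All tested probes had a median of -0.0029, and 50.3% were below 0. The other genes of like brightness also leaned to lower values as deposited, and the lean was not seen after either rescaling. The quartiles of the members were -0.43 and -0.03, beside -0.38 and 0.10 in the other genes of like brightness. The extremes of the members were -1.31 for Mrps24 and 0.70 for Mrpl3.

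**Figure D1:**
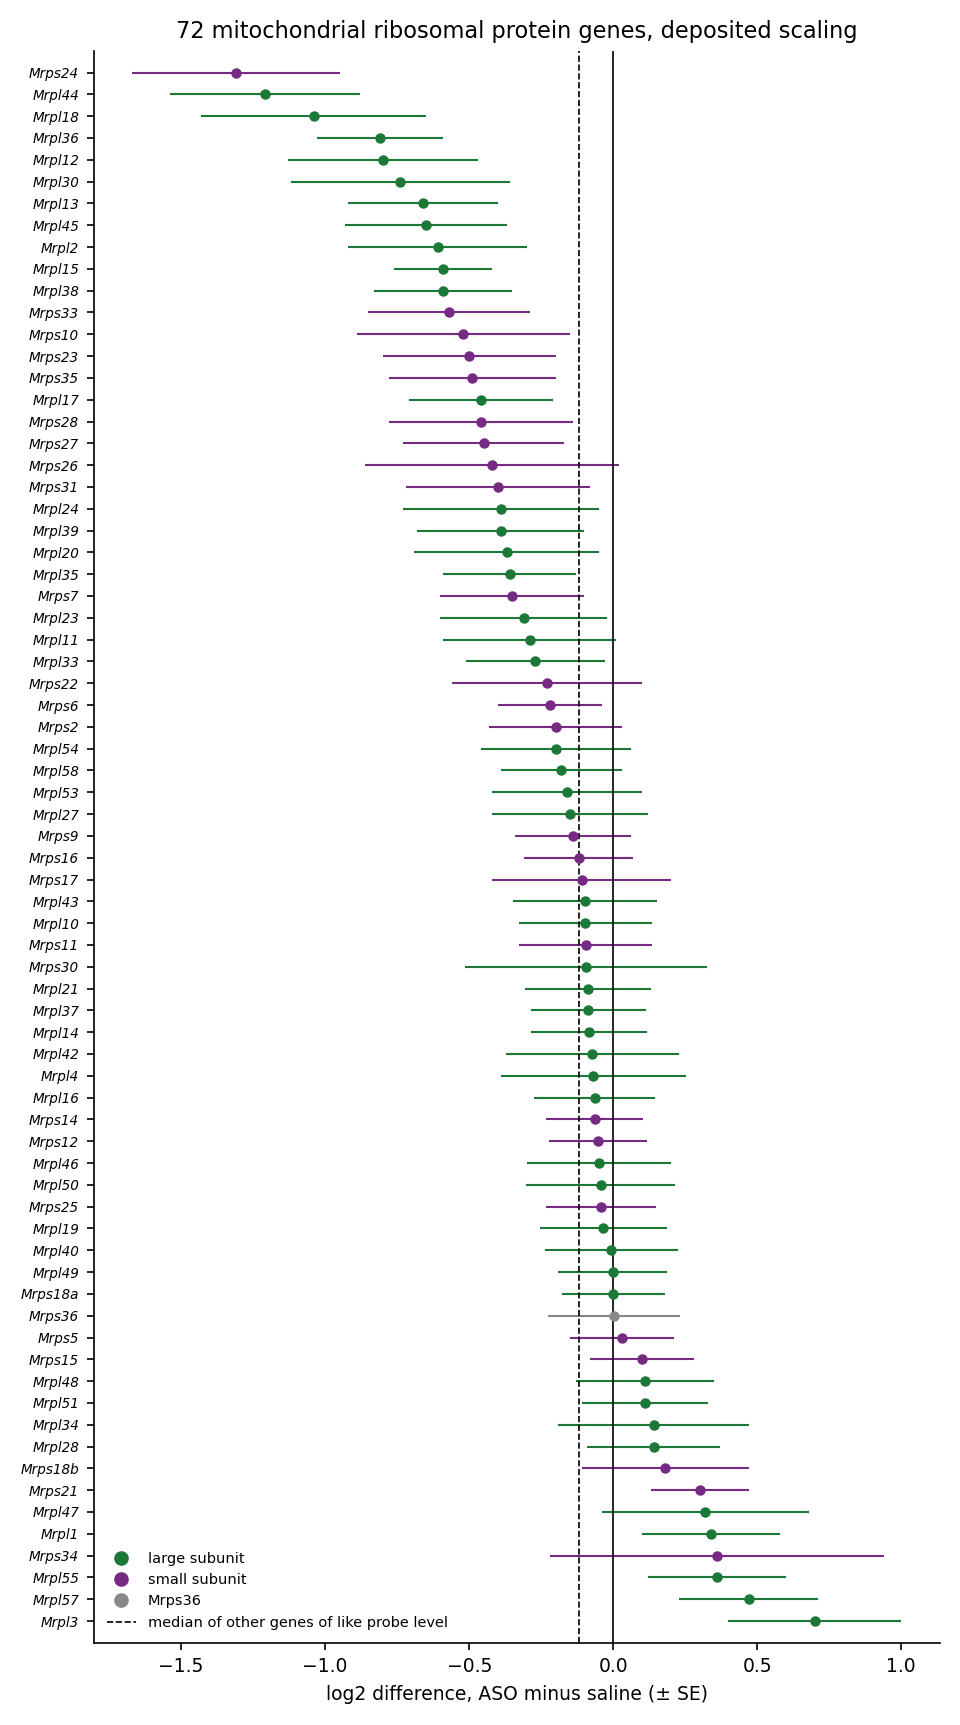
Each of the 72 member genes is a row, with its log2 difference (ASO minus saline, deposited scaling) as a point and its standard error as a bar; green marks the large subunit, purple the small subunit and grey Mrps36. Of the 72 points 56 lie below 0 (35 after quantile normalization), and the dashed line at -0.12 is the median of 2690 other genes of like probe level.

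The median deviation of the members from their own 10-array means was 0.03 to 0.27 in the saline mice and -0.15, -0.14, -0.11, 0.07 and 0.13 in the ASO mice. ASO replicates 2 and 5, with 0.13 and 0.07, lay among the saline mice. Saline replicate 1 was the highest at 0.27 and held the highest value of 17 members. The other genes of like brightness were also highest on that array, at 0.22. They stood at 0.03 to 0.10 on the other saline arrays and at -0.06 to -0.01 on the ASO arrays. ASO replicate 5 held the highest value of 16 members and ASO replicate 2 of 13, whereas ASO replicates 3 and 4 held the lowest value of 16 and 14 members. The spread between mice was larger in the ASO group for 48 of the 72 genes, with a median SD of 0.44 against 0.32 in the saline group. Spreads were not counted in this way for other genes, so this is not shown to be particular to the members. The array weights, fitted over all tested probes and lower for noisier arrays, were 0.63 to 1.05 in ASO and 0.83 to 2.02 in saline mice. After quantile normalization the array medians were -0.05 to 0.14 in saline and -0.09 to 0.24 in ASO mice, and ASO replicate 2 was then the highest of all 10.

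**Figure D2:**
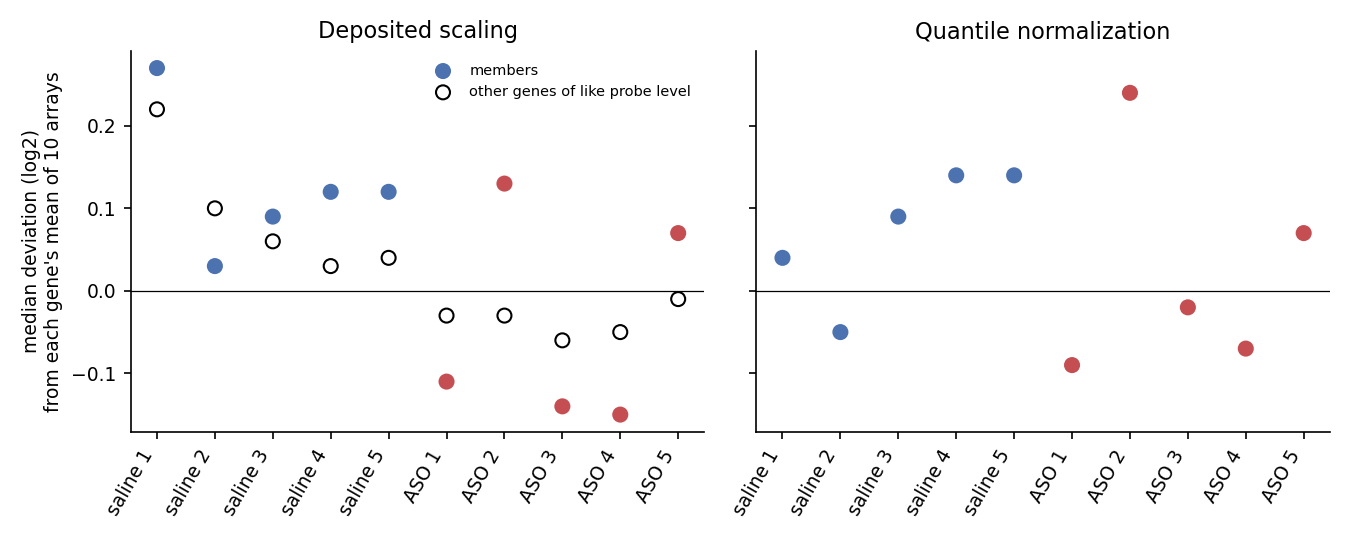
Filled points give, for each array, the median over the 72 members of the deviation (log2) from each gene's mean over the 10 arrays, in blue for saline and red for ASO mice; open circles, in the left panel alone, give the same for 2690 other genes of like probe level. As deposited, ASO replicates 2 and 5 lie at 0.13 and 0.07 among the saline mice, and after quantile normalization both groups span 0.

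Groups that did not overlap were found for 4 members, all lower in ASO mice (5.56%), beside 1.43% of all probes and 2.42% of the genes of like brightness. These were Mrpl44, Mrps24, Mrpl36 and Mrpl15. The probes of Mrpl44 (level 1.76) and Mrpl36 (level 0.21) were dimmer than those of the genes of like brightness, whose levels were 3.50 to 5.75. No member was higher without overlap, a pattern found in 0.939% of all probes and 1.19% of the genes of like brightness. The 4 genes also kept an unadjusted p under 0.05 in each of the 18 alternative analyses, including both rescalings and the omission of any array. Leaving out an array cannot make separated groups overlap, and every alternative used these same mice. That persistence is therefore no independent support. The adjusted p-values of the 4 genes were above 0.05 throughout.

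Mrpl44 encodes a large subunit protein found in mitochondria alone that has the fold of a double-stranded RNA nuclease. Its log2 intensity was 3.52, 2.66, 1.88, 2.17 and 1.59 in saline replicates 1 to 5 and 0.96, 1.34, 1.38, 1.35 and 0.76 in ASO replicates 1 to 5. Every ASO mouse lay below every saline mouse, and saline replicate 1 stood highest. The log2 difference was -1.21 ± 0.33 (SE, n = 5 per group, limma adjusted p = 0.237), 2.31-fold higher in saline, and -0.92 without saline replicate 1.

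Mrps24, the counterpart of a bacterial protein at the entry of the messenger RNA channel, had the largest difference of all members. It stood at 6.72, 5.77, 6.62, 5.80 and 5.85 in the saline mice and at 5.71, 4.87, 4.11, 4.06 and 5.47 in the ASO mice. The highest ASO mouse was just below the lowest saline mouse, so the groups were separated by a narrow gap. The difference was -1.31 ± 0.36 (SE, n = 5 per group, limma adjusted p = 0.237), 2.48-fold higher in saline, and ranged from -1.53 to -1.12 when single arrays were left out.

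Mrpl36 encodes a very small zinc-binding protein of the large subunit that is conserved from bacteria. It stood at 1.17, 0.41, 0.27, 0.94 and 0.26 in saline and at -0.03, -0.02, -0.36, -0.55 and -0.03 in ASO mice, all 5 of them below 0. The difference was -0.81 ± 0.22 (SE, n = 5 per group, limma adjusted p = 0.238). The Mrpl36 probe was dim (level 0.21), and the difference ranged from -0.90 to -0.57 over the alternatives. Mrpl15, another large subunit protein with a bacterial counterpart, showed the tightest groups of the 4. It stood at 4.52, 4.71, 4.40, 4.70 and 4.18 in saline and at 3.82, 3.61, 4.00, 4.13 and 3.99 in ASO mice, a difference of -0.59 ± 0.17 (adjusted p = 0.255). Its lowest saline mouse and its highest ASO mouse were close together.

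Another 5 members had an unadjusted p under 0.05 with groups that overlapped, and all are large subunit proteins. Of the 18 alternatives, Mrpl18 kept that p in 15, Mrpl13 and Mrpl12 in 12, Mrpl38 in 11 and Mrpl45 in 10. Quantile normalization ended it for Mrpl13, Mrpl12, Mrpl38 and Mrpl45, and leaving out saline replicate 1 or ASO replicate 3 ended it for all 5. Mrpl18, of a family that binds ribosomal RNA in bacteria, stood at 6.56, 5.86, 6.12, 5.68 and 5.66 in saline and at 4.28, 5.57, 3.79, 4.97 and 6.05 in ASO mice, with a difference of -1.04 ± 0.39 (limma adjusted p = 0.359). ASO replicate 5 reached the saline range while ASO replicates 1 and 3 were far below it. Mrpl13, which has a bacterial counterpart, stood at 5.93, 5.76, 5.53, 5.59 and 5.74 in saline and at 4.80, 5.25, 4.11, 5.47 and 5.59 in ASO mice (-0.66 ± 0.26, adjusted p = 0.384). Here too ASO replicate 5 alone overlapped the saline mice, and the difference was -0.43 without ASO replicate 3.

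Mrpl12 forms the flexible stalk that recruits translation factors to the ribosome, and is also reported to bind the mitochondrial RNA polymerase. It stood at 6.44, 6.05, 6.09, 6.24 and 6.08 in saline mice, among the narrowest spreads of the members, and at 4.40, 4.93, 5.25, 5.84 and 6.47 in ASO mice. The ASO mice covered a wide range, and ASO replicate 5 exceeded all saline mice. The difference was -0.80 ± 0.33 (SE, n = 5 per group, limma adjusted p = 0.398), -1.08 without ASO replicate 5 and -0.56 without ASO replicate 1. Mrpl38, of the central protuberance, stood at 4.16, 3.93, 3.54, 3.53 and 4.06 in saline and at 3.33, 3.88, 2.75, 3.48 and 2.86 in ASO mice (-0.59 ± 0.24, adjusted p = 0.398). Mrpl45, which lies at the exit of the nascent chain by the inner membrane, stood at 2.60, 2.20, 1.93, 1.79 and 1.54 in saline and at 1.59, 1.10, 0.67, 1.42 and 2.04 in ASO mice (-0.65 ± 0.28, adjusted p = 0.413). ASO replicate 2 lay inside the saline range for Mrpl38, and ASO replicates 1 and 5 did for Mrpl45.

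Mrpl3, whose bacterial counterpart reaches towards the site of peptide bond formation, was the member with the largest difference in the other direction. It stood at 4.87, 4.35, 5.80, 5.06 and 4.36 in saline and at 5.93, 6.09, 5.09, 5.46 and 5.39 in ASO mice. Saline replicate 3 alone lay above most ASO mice. The difference was 0.70 ± 0.30 (SE, n = 5 per group, limma adjusted p = 0.413), and a second, dim probe of the gene (level -1.93) gave -0.04 ± 0.27. The unadjusted p stayed under 0.05 in 12 of the 18 alternatives.

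**Figure D3:**
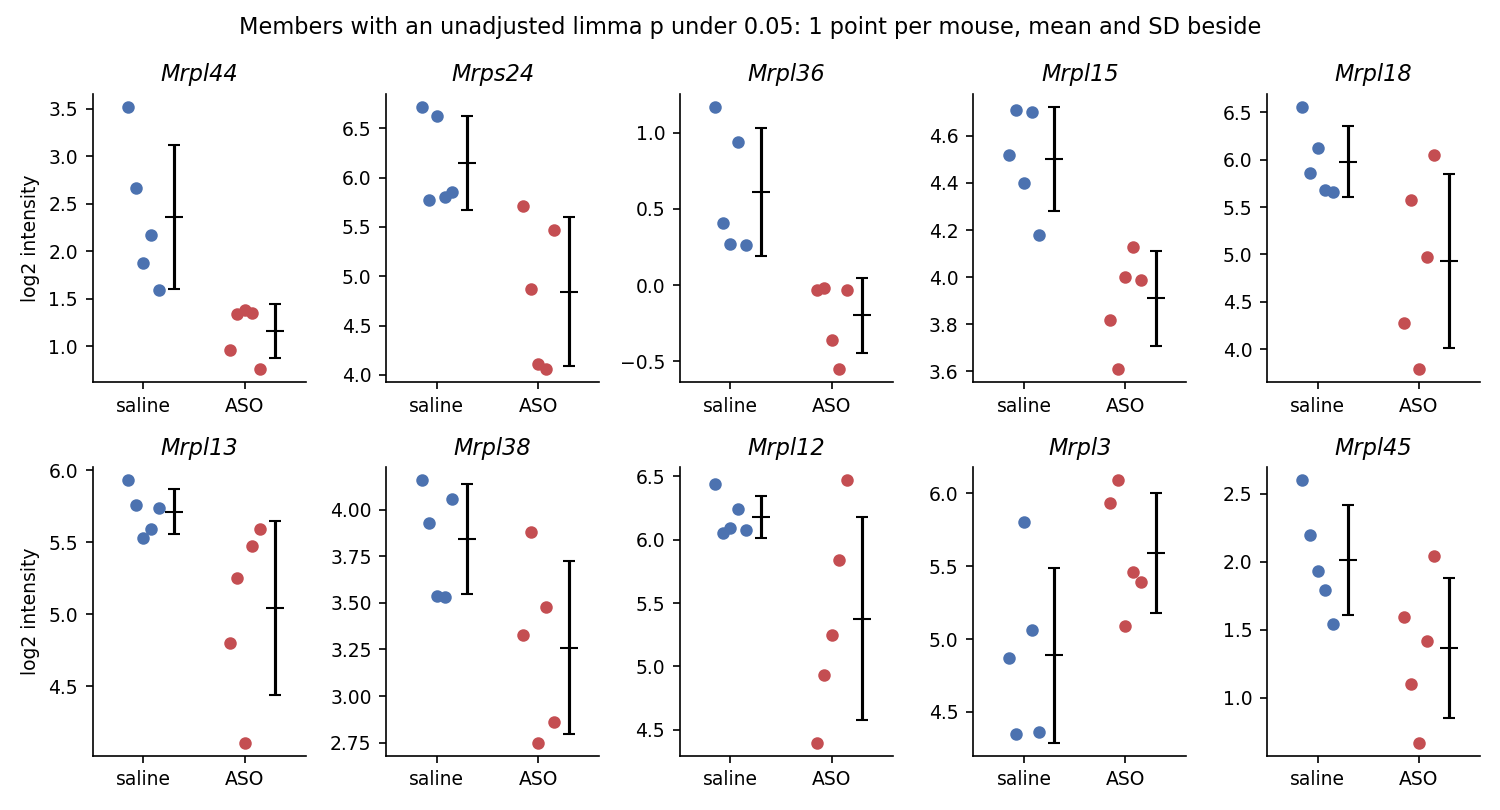
Log2 intensity of the 10 members with an unadjusted limma p under 0.05, with 1 point per mouse (blue saline, red ASO, n = 5 each) and the mean with its SD as a bar beside the points; each panel has its own axis. Groups are apart in Mrpl44, Mrps24, Mrpl36 and Mrpl15 and overlap in the other 6.

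Other large subunit genes gave smaller differences or larger errors. Mrpl30 was at -0.74 ± 0.38 and -0.38 without ASO replicate 4, Mrpl2 at -0.61 ± 0.31, Mrpl17 at -0.46 ± 0.25 and Mrpl35 at -0.36 ± 0.23. On the other side were Mrpl57 at 0.47 ± 0.24, Mrpl55 at 0.36 ± 0.24, Mrpl1 at 0.34 ± 0.24, Mrpl47 at 0.32 ± 0.36 and Mrpl28 at 0.14 ± 0.23. None of these had an unadjusted p under 0.05. Mrpl23, the neighbour of the imprinted H19 and Igf2 genes, stood at 5.90 ± 0.40 in saline and 5.59 ± 0.58 in ASO mice (SD, n = 5 per group), a difference of -0.31 ± 0.29. The large subunit as a whole had 36 of 46 genes below 0 and a median of -0.098, and 20 of 46 and 0.021 after quantile normalization.

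In the small subunit 20 of 25 genes were below 0 with a median of -0.20, and 15 of 25 with a median of -0.043 after quantile normalization and 16 of 25 with -0.071 after cyclic loess. Mrps24 was the 1 small subunit gene with an unadjusted p under 0.05, beside 8 lower and 1 higher in the large subunit. Mrps12, which lies at the decoding centre and is one of the proteins best conserved from bacteria, stood at 6.90 ± 0.27 in saline and 6.85 ± 0.16 in ASO mice (SD, n = 5 per group) with a difference of -0.053 ± 0.17 that was 0.045 after quantile and 0.033 after cyclic loess normalization. Mrps21 was at 0.30 ± 0.17 and Mrps15 at 0.10 ± 0.18. Mrps14 was at -0.065 ± 0.17 and Mrps5 at 0.031 ± 0.18, values whose sign turned in some alternatives.

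The 10 small subunit proteins found in mitochondria alone had the lowest median of the 4 classes, -0.41, and -0.27 and -0.28 after quantile and cyclic loess normalization. The corresponding medians for the other classes as deposited were -0.12 (15 small subunit genes with a bacterial counterpart), -0.27 (27 large subunit genes with one) and -0.087 (19 large subunit genes without). None of the 10 genes had an unadjusted p under 0.05. The lowest was Mrps33 at -0.57 ± 0.28, and Mrps23, Mrps35 and Mrps27, named after their values were seen, were at -0.50, -0.49 and -0.45. Mrps18b was at 0.18 ± 0.29. Mrps34 was at 0.36 ± 0.58 with saline replicate 4 at the floor, and at -0.32 without that array. Differences between classes were not tested.

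Mrps30 and Mrps18a are the large subunit proteins with small subunit names. The differences of Mrps18a and Mrps36 were close to 0. Mrps18a was at 4.99 ± 0.30 in saline and 4.99 ± 0.18 in ASO mice (SD, n = 5 per group), and Mrps36 at 4.43 ± 0.23 and 4.43 ± 0.44. Mrps30, known as a pro-apoptotic protein as well as a ribosomal one, was at 2.77 ± 0.29 and 2.68 ± 1.03. Its ASO spread came from replicate 2 at 4.13 and replicate 4 at 1.22, and the sign of its difference turned without replicate 4 (0.27). With all arrays the Mrps30 difference was -0.095 ± 0.42, an error too wide to place it near 0. A second, dimmer probe of that gene (level 1.55) gave -0.32 ± 0.19.

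**Figure D4:**
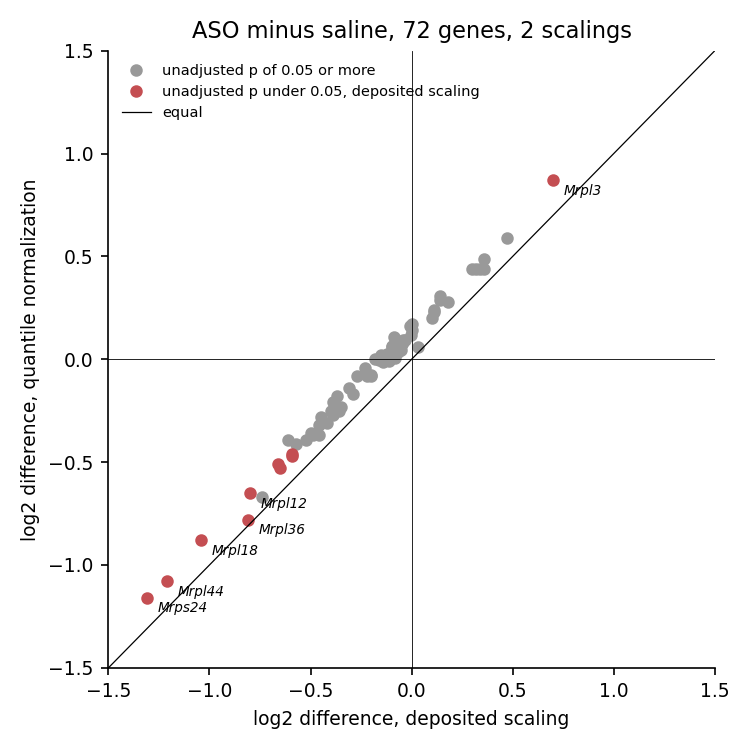
The log2 difference (ASO minus saline) of each of the 72 members with the deposited scaling (x axis) and after quantile normalization (y axis), with the line of equality; red points had an unadjusted limma p under 0.05 as deposited. Most points lie above the line, so that 56 of 72 were below 0 as deposited and 35 of 72 after quantile normalization, while Mrps24, Mrpl44 and Mrpl18 stayed at the lower left.

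Several single-gene probes were present for 11 members, and in 9 of these the probes differed in sign. In 6 of these 9 every other probe lay below the median level of the tested probes. Mrps7, named after its values were seen, had probes at similar levels, 3.75 and 3.36, which gave -0.35 ± 0.25 and 0.42 ± 0.21. Both Mrps12 probes were bright and gave differences within their error of 0.

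RefSeq promoter windows on GRCm38.p6, running from 250 bases before the start to 50 bases after it, were at hand for 63 of the 72 genes. Exact matches on either strand were counted for GCGCANGCG (core of the motif of NRF1, a factor known for nuclear genes of mitochondrial proteins), CCGGAAG (ETS family, which includes GABP) and AAGATGGCG (YY1). The motifs can overlap, since AAG ends the ETS motif and begins the YY1 motif, and GCG ends the YY1 motif and begins the NRF1 core. The NRF1 core occurred in 13 of 63 member genes (20.6%) and in 9.63% of all 17492 protein-coding genes, the ETS motif in 23 (36.5%) and 12.9%, and the YY1 motif in 8 (12.7%) and 2.14%. At least 1 of the 3 was found in 37 genes (58.7%) and in 21.8% of all genes. Median GC content was 58.7% in the members' windows and 56.3% in all windows.

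Within the members, the median log2 difference was -0.39 for the 13 genes with the NRF1 core and -0.10 for the 50 without it, but 10 of the 13 and 38 of the 50 were below 0, which are like shares. For the ETS motif the medians were -0.12 and -0.10 (15 of 23 and 33 of 40 below 0), and for the YY1 motif -0.23 and -0.11 (7 of 8 and 41 of 55). These are descriptions of few genes on the deposited scaling, with no test. A match is no evidence of binding in these livers. Shown here are the windows of the 3 separated members that had one (Mrpl44, Mrps24, Mrpl36), of Mrpl3 on the other side, and of Mrps11, whose window also holds the start of Mrpl46 on the other strand. Capitals mark the motif matches, and each sequence runs 5′ to 3′ along the gene.

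Mrpl44, NRF1 core, chr1:79775768-79776067, plus strand: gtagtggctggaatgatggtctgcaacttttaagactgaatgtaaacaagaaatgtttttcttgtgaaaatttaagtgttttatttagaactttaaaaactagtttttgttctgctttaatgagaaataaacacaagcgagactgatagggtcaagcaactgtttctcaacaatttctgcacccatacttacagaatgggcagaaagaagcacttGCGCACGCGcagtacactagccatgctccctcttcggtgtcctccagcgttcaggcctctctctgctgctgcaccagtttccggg

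Mrps24, YY1 motif, chr11:5707652-5707951, minus strand: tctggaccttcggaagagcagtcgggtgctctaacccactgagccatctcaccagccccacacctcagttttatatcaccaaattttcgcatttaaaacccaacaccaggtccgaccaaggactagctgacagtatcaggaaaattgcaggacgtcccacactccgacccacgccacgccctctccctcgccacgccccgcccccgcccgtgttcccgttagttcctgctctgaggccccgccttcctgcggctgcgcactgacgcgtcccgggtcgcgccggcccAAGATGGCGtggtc

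Mrpl36, YY1 motif on the opposite strand, chr13:73330759-73331058, plus strand: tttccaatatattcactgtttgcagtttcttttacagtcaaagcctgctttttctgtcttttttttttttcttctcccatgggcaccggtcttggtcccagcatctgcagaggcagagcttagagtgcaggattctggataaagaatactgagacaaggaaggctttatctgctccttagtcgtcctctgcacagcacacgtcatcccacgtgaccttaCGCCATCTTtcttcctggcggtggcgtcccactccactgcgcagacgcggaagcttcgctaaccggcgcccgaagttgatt

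Mrpl3, ETS motif, chr9:105053018-105053317, plus strand: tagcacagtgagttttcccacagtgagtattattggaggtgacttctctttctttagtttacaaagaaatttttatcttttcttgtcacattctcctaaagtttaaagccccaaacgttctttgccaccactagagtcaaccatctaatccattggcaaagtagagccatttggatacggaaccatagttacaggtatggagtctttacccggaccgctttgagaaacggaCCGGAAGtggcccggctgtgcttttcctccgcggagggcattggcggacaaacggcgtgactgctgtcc

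Mrps11, YY1 motif on the opposite strand, chr7:78782881-78783180, plus strand: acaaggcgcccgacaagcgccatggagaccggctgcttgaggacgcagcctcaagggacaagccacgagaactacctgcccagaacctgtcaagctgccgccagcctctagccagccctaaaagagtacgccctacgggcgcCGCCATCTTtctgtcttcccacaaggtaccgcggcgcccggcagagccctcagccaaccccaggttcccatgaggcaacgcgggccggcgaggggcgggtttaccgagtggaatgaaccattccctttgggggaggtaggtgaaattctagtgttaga

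In the other genes of mitochondrial translation no gene passed the adjusted test either. The 4 measured mitochondrial ribosomal proteins with other symbols were all below 0 under each of the 3 scalings, with a median of -0.47 as deposited (-0.31 after quantile normalization). They were Ptcd3, an RNA-binding small subunit protein, at -0.72 ± 0.25 (limma adjusted p = 0.330), Chchd1 at -0.60 ± 0.30, Gadd45gip1 at -0.33 ± 0.23 and Dap3 at -0.23 ± 0.27. Of these Ptcd3 alone had an unadjusted p under 0.05.

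Translation factors of mitochondria had 14 of 17 genes below 0, median -0.12, and 9 of 17, median -0.029, after quantile normalization. At an unadjusted p under 0.05 there were 4 lower and 0 higher (2 lower and 0 higher after quantile normalization). Tsfm, an elongation factor named after its values were seen, had the difference farthest above 0, at 1.20 ± 1.28, with an SD of 0.19 in saline and 3.42 in ASO mice. Gatc, a subunit of the enzyme that makes mitochondrial glutaminyl-tRNA, was at -0.97 ± 0.29, the initiation factor Mtif2 at -1.17 ± 0.42 (-0.20 when its probes were averaged) and Gfm2, which recycles the ribosome, at -0.57 ± 0.24. The Gatc probe was dim (level 0.33, ASO mean -0.16), and its difference ranged from -1.16 to -0.66 over the alternatives. Assembly and ribosomal RNA modification genes had 17 of 27 below 0 (15 after quantile normalization), 3 lower and 1 higher at that limit (3 and 2 after quantile normalization). The higher one was Noa1, a GTPase of small subunit assembly named after its values were seen, at 0.41 ± 0.16 (limma adjusted p = 0.374), with every ASO mouse above every saline mouse. The proteases Afg3l2 and Spg7, which process a large subunit protein on import, were at -0.93 ± 0.26 and -1.05 ± 0.32, and the methyltransferase Mrm2 at -0.70 ± 0.22. The Spg7 probe was dim (level -1.23), and with a pseudocount its difference was -0.50. The Mrm2 probe was dim as well (level 0.62), with differences from -0.81 to -0.52 over the alternatives. None of 16 mitochondrial aminoacyl-tRNA synthetases had an unadjusted p under 0.05, with Yars2 at -0.64 ± 0.30, Cars2 at -0.48 ± 0.23 and Iars2 at -0.45 ± 0.26.

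Genes of mitochondrial DNA upkeep, transcription and RNA processing had 17 of 20 below 0, median -0.28, and 14 of 20, median -0.14, after quantile normalization. Polg, the mitochondrial DNA polymerase, stood at 0.92 ± 0.16 in saline and 0.14 ± 0.30 in ASO mice (SD, n = 5 per group), with groups that did not overlap and a difference of -0.78 ± 0.18 (limma adjusted p = 0.180). The Polg probe was dim (level 0.53), and its difference ranged from -0.84 to -0.57 over the alternatives. Top1mt was at -0.48 ± 0.20 and Hsd17b10 at -0.36 ± 0.17. Among 15 regulators of mitochondrial biogenesis 3 were lower and 0 higher at an unadjusted p under 0.05. These were Gabpa, the DNA-binding subunit of the ETS factor GABP, at -1.17 ± 0.28 (adjusted p = 0.190, groups apart), the clock repressor Nr1d1 at -1.19 ± 0.38 and the deacetylase Sirt3 at -0.90 ± 0.31. The Gabpa probe was dim (level 0.49, ASO mean -0.10), and its difference ranged from -1.36 to -0.85 over the alternatives.

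Other mitochondrial and ribosomal lists are given beside the mitochondrial ribosomal proteins for scale. Genes of mitochondrial content and import had 18 of 20 below 0 and a median of -0.36 as deposited, and 15 of 20 and -0.23 after quantile normalization, with 4 lower and 1 higher at an unadjusted p under 0.05. Nuclear oxidative phosphorylation subunits had 65 of 76 genes below 0 and a median of -0.35 as deposited, and 62 of 76 and -0.27 after quantile normalization. Cytosolic ribosomal proteins had 49 of 58 and -0.25, and 43 of 58 and -0.19. For the mitochondrial ribosomal proteins the values were 56 of 72 and -0.13, and 35 of 72 and 0.0024. At an unadjusted p under 0.05 these 3 lists had, in this order, 20, 10 and 9 genes lower and 0, 0 and 1 higher. After quantile normalization 19, 10 and 5 were lower and 0, 1 and 3 higher. Groups that did not overlap, with ASO lower, were found for 7, 4 and 4 genes as deposited. Of all probes 6.66% were lower at that p and 1.43% were lower without overlap. Whether the lists differ was not tested.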

How the data were processed

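Intensities were deposited by the authors as linear numbers for 36227 probes on 10 arrays whose medians were 1.03 to 1.05. Scanner software, background step and scaling: not given in the sources used here. The labels name a CodeLink labelling protocol. Probes with at least 3 values per group (36088) were kept, lower values were raised to the 10th percentile of the positive ones (0.192), and the deposited values were put on a log2 scale. Differences were fitted per probe with limma 3.58.1 in R 4.3.3 without covariates (a two-sided test), and p-values were adjusted by Benjamini-Hochberg across the tested probes. Nothing says whether mice shared a cage or litter. Genes were named from the platform annotation; all 72 members matched a GRCm38.p6 gene table by Entrez ID. One further matching symbol was held only by probes of several genes and was left out.

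Named members were those past the adjusted threshold, the 12 lower and 8 higher with the smallest p, those with separate groups, the 5 brightest and 5 dimmest, those with probes of opposite sign and an unadjusted p under 0.05, and some with known roles; related lists gave up to 3 genes each. The members and lists were chosen with earlier results of these data known. The fit was also run on simulated data with independent noise for each probe and no effects of whole arrays. That run does not show how many real changes would be found on these arrays. Alternatives were 2 rescalings (cyclic loess added after the data were seen), no floor, a pseudocount of 0.5, a fit on the brighter probes alone, weights per array, a robust variance model with a trend, the mean of a gene's probes and leaving out each array.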

Additional observations from a re-analysis of the deposited data

Results flagged for a closer look

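In 100 groups of 5 mice (the named genes in each treatment), 5 had 1 mouse far from the other 4, by a gap over 0.71 of the group's range, about the 1 in 20 that chance gives. Mrps34 in saline replicate 4 was at -2.38, the floor, against 0.83 to 1.21 in the other saline mice. Gfm2 in ASO replicate 5 was at 1.97, against 2.79 to 3.11. Iars2 in saline replicate 1 was at 5.29, against 4.53 to 4.67. Polg in ASO replicate 3 was at -0.38, against 0.17 to 0.38, and Top1mt in the same mouse was at 1.35, against 1.84 to 1.97.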

How the results depend on the processing

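The count of 0 members past the adjusted threshold held in all 18 alternatives. Quantile normalization turned the median of the members to 0.0024 and gave 5 lower and 3 higher members at an unadjusted p under 0.05. Of all probes 5.32% were then lower and 5.21% higher. Cyclic loess moved the median to -0.017 and gave 6 lower and 2 higher, beside 5.85% and 4.62% of all probes. The mean of a gene's probes gave 0 higher, beside 4.48%. Leaving out single arrays gave medians of -0.23 to -0.10, 4 to 15 lower members and 0 to 2 higher ones. Over all probes the lower share was then 4.61% to 8.41% and the higher share 3.23% to 5.89%. The cause of these moves was not tested. Of 32 named members 23 kept their sign throughout. Under quantile normalization Mrpl14 was 0.0046, Mrps12 0.045, Mrps14 0.036 and Mrps30 0.021; under cyclic loess they were 0.0064, 0.033, 0.013 and 0.024. With probes averaged Mrps12 was 0.020 and Mrps14 0.19, and with array weights Mrps36 was -0.0041 and Mrps5 -0.029. Without single arrays Mrpl14 ranged from -0.23 to 0.038, Mrps12 from -0.13 to 0.017, Mrps14 from -0.15 to 0.04, Mrps18a from -0.10 to 0.082, Mrps18b from -0.0097 to 0.30, Mrps30 from -0.46 to 0.27, Mrps34 from -0.32 to 0.58, Mrps36 from -0.12 to 0.15 and Mrps5 from -0.075 to 0.12. All 18 named related genes kept their sign. The number of arrays limits the precision. No paired analysis was possible because the labels hold no number that links a saline mouse to an ASO mouse.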

Other observations

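Many members share their promoter region with another gene that is read in the opposite direction. Among members with a RefSeq promoter entry, 21 of 63 members (33.3%) had a protein-coding gene starting within 1000 bases upstream on the other strand, beside 8.48% of 17492 protein-coding genes. Mrpl46 and Mrps11 form such a pair from within the list, with log2 differences of -0.048 and -0.096. Mrps12 lies beside Sars2, a mitochondrial seryl-tRNA synthetase, whose probe was too near the floor (level -2.04) for its difference to be read. Mrpl18 at -1.04 lies beside the chaperonin gene Tcp1, whose difference was -0.0026 ± 0.41. Mrpl30 at -0.74 lies beside Mitd1 at 0.048, and Mrpl47 at 0.32 beside the complex I gene Ndufb5 at -0.46 ± 0.21. Mrpl14 at -0.084 lies beside Tmem63b at -0.66 ± 0.28, the 1 neighbour with an unadjusted limma p under 0.05 (0.0369). The pairs were named after their values were seen. These values are descriptions, and whether such pairs move together was not tested.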
